A study of Arabidopsis thaliana with 8 samples.

Results

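The mitochondrial genes atp6-1, atp6-2 and atp9 encode the proton channel of the ATP synthase, and their ribosome footprints were followed in flowers of 2 Arabidopsis thaliana mutants and of the wild type. They were picked by gene name and are 3 of the 33 genes with a footprint value. The mutants were mtl1, labelled as a pentatricopeptide repeat (PPR) mutant affected in nad7 mRNA translation, and mtsf1, labelled as a PPR mutant affected in nad4 mRNA stability. The wild type was Col-0, which is also the background of both mutants, and flowers of all genotypes were harvested together from plants of 10 to 12 weeks. Mutant alleles and the number of plants pooled are not given in the labels. Ribosome profiling (Ribo-seq), which sequences the mRNA fragments that ribosomes protect from nuclease, had 2 libraries per genotype (A and B), and RNA-seq had 2 libraries of Col-0. No mutant RNA-seq was used here, and fewer mRNA molecules and less translation per mRNA cannot be told apart.

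ATP synthase makes ATP from the proton gradient across the inner mitochondrial membrane. Protons pass between subunit a, the product of atp6, and a ring of identical c subunits, the product of atp9, and the turning ring drives catalysis in the head of the enzyme, where the atp1 product sits. Plant mitochondria keep these genes in their own genome, and rearranged copies of atp6 and atp9 are known from plants with cytoplasmic male sterility. The unit used throughout is the normalized read count, a count per gene that the authors had scaled and rounded. Nothing in the labels tells whether library A was made from other plants than library B. The p-values therefore reflect the spread between libraries, which may be technical only.

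In the TAIR10.1 assembly, atp6-1 (annotated as copy 1 of atp6) lies on the plus strand of the mitochondrial genome at MT 49423 to 50580, with a coding length of 1158 bases. Copy 2, atp6-2, lies on the minus strand at MT 264467 to 265516 and has 1050 bases. The atp9 gene, of 225 bases, lies on the same strand at MT 270961 to 271185, 5444 bases from atp6-2. Each is annotated as a single uninterrupted coding exon. The last 761 bases of both atp6 copies are identical, and the copies differ only before that stretch, in the part that encodes the start of the protein. The point where they become identical is shown because it bounds what footprint reads can tell apart. The capitals mark the first 20 bases of the shared stretch, at chrMT:49800-49839 (plus strand) and chrMT:265208-265247 (minus strand).
atp6-1, coding bases 378 to 417: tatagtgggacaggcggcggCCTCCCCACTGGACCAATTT
atp6-2, coding bases 270 to 309: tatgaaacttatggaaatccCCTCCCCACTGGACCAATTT

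In the 20 bases before this point, 5 positions carry the same base in both copies. Of all words of 30 bases, about the length of a footprint, 732 are shared, which is 64.8% of the words of atp6-1 and 71.7% of those of atp6-2. The sources used here do not say how reads that match both copies were counted, so the split between the copies is uncertain, and the sum of both is given beside it. atp9 shares no word of this length with another of the 33 coding sequences.

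The channel genes' transcripts are also changed by RNA editing, the conversion of cytidines to uridines, read as T in cDNA. The deposited editing tables list 4 sites in atp9 and none in atp6. The windows around the atp9 sites are shown because each edit changes the encoded amino acid. The capital marks the edited base as the deposited table prints it, which is the edited form in all but the last.
atp9 coding base 20, chrMT:271161-271186, minus strand: gatgttagaaggtgcaaaatTaatag
atp9 coding base 50, chrMT:271131-271156, minus strand: cggagctgctacaattgcttTagcgg
atp9 coding base 134, chrMT:271047-271072, minus strand: tccatcattggctaaacaatTatttg
atp9 coding base 191, chrMT:270990-271015, minus strand: agctattgcattgtttgcccCaatga

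All 4 edits fall on the second base of a codon. Per the TAIR10.1 annotation, the changes C20T, C50T and C134T (numbered from the first base of the start codon) turn a serine codon, TCA, into the leucine codon TTA. The change C191T turns the proline codon CCA into the leucine codon CTA.

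Footprints of all 3 channel genes were lower in both mutants than in Col-0. In whole flowers, fewer cells of a type and less RNA per cell cannot be told apart. atp6-1, the copy with most of the assigned footprints, had 4944 and 8629 normalized read counts in mtl1, 8294 and 6892 in mtsf1, and 15141 and 14779 in Col-0. Each mutant library lay well below both Col-0 libraries. atp6-2, the second copy of the gene for subunit a, had 333 and 328 in mtl1, 258 and 329 in mtsf1, and 658 and 491 in Col-0. Again no mutant library reached the lower Col-0 library. atp9, the gene for the c subunit, had 11195 and 13196 in mtl1, 9004 and 7687 in mtsf1, and 23516 and 13878 in Col-0. Here mtl1 B came close to Col-0 B, and the Col-0 libraries differed 1.69-fold. Libraries that did not overlap were common in the table: 45.5% of the 33 genes were lower in both mtl1 libraries than in both Col-0 libraries, and 39.4% in the mtsf1 libraries (75.8% in either direction for each mutant).

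**Figure D1:**
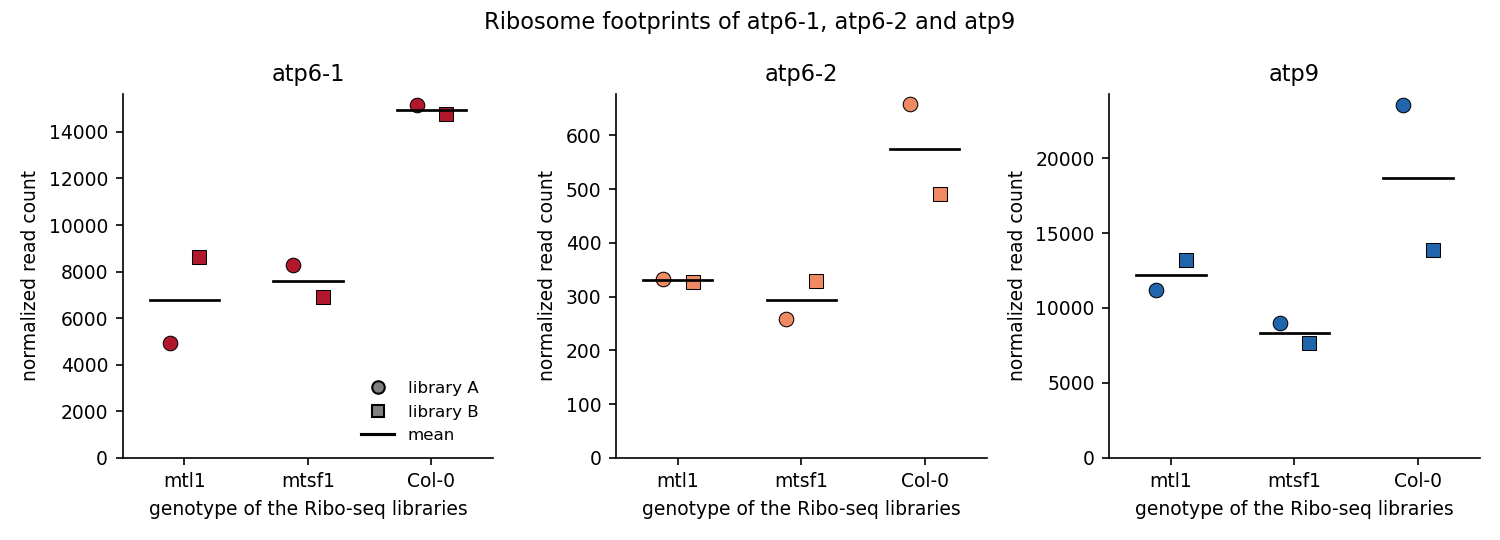
Normalized read counts of atp6-1, atp6-2 and atp9 (vertical axes, each from 0) in the Ribo-seq libraries of mtl1, mtsf1 and Col-0. Circles are library A, squares library B and bars the mean of 2 libraries. Every mutant library lies below both Col-0 libraries, by the smallest relative margin for atp9 in mtl1 B (13196, against 13878 in Col-0 B).

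In mtl1, all 3 genes fell by the limma test, which over the whole table called 33.3% of genes, with 18.2% lower. The test shares 1 variance over all genes, so the standard error was 0.23 log2 units for every gene. atp6-1 averaged 6787 ± 2606 normalized read counts in mtl1 and 14960 ± 256 in Col-0 (SD, n = 2 libraries each). It was 2.29-fold lower (95% interval 1.66 to 3.16, limma adjusted p = 2.5e-05). atp6-2 averaged 330.5 ± 3.54 in mtl1 and 574.5 ± 118 in Col-0. It was 1.72-fold lower (1.25 to 2.37, limma adjusted p = 0.0049). The atp9 mean was 12196 ± 1415 in mtl1 and 18697 ± 6815 in Col-0. It was 1.49-fold lower (1.08 to 2.05), with an adjusted p of 0.0486 by limma, close to the threshold of 0.05. The order of the changes, from atp6-1 to atp9, was not tested.

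The channel genes were 3 of the 6 genes that fell in mtl1, where 5 rose. These counts rested on single libraries: without Col-0 A, 3 genes fell and 6 rose, with atp6-1 the only channel gene still called, and without Col-0 B, 7 fell and 1 rose. With the atp6 copies summed into 1 gene, 4 genes fell and 5 rose, and atp9 no longer passed (limma adjusted p = 0.0513). The median log2 fold change over all genes was -0.13 in mtl1. Within ATP synthase, 3 of the 6 genes fell, all of them channel genes, and the median of the list was -0.48. The other genes did not pass: atp1, for a subunit of the catalytic head, had a log2 fold change of 0.38 (limma adjusted p = 0.201), and atp4 and atp8, for subunits of the membrane stalk, had -0.16 (0.556) and -0.40 (0.179).

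The mtl1 results rested on single libraries to different degrees. For atp6-1 the log2 fold change of -1.20 became -0.79 without mtl1 A and -1.60 without mtl1 B, past the threshold in both. The 1.75-fold gap between the mtl1 libraries was the second largest of the 33 genes. For atp6-2 the change of -0.78 became -0.57 without Col-0 A and no longer passed (limma adjusted p = 0.110, in a range of 0.0048 to 0.136 over 15 alternatives). For atp9 the change of -0.57 became -0.19 without Col-0 A (0.649), and the call was lost in 12 of 17 alternatives, among them scaling to equal totals (-0.48, adjusted p = 0.0867, in a range of 0.0110 to 0.649).

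In mtsf1 all 3 genes fell as well, by 1.95-fold to 2.17-fold. Over the whole table limma called 48.5% of genes there, with 21.2% lower. atp6-1 averaged 7593 ± 991 normalized read counts in mtsf1 and 14960 ± 256 in Col-0 (SD, n = 2 each). It was 1.98-fold lower (95% interval 1.43 to 2.73, limma adjusted p = 0.00017). atp6-2 averaged 293.5 ± 50.2 in mtsf1 and 574.5 ± 118 in Col-0. It was 1.95-fold lower (1.41 to 2.69, limma adjusted p = 0.00019). The atp9 mean was 8346 ± 931 in mtsf1 and 18697 ± 6815 in Col-0. It was 2.17-fold lower (1.57 to 2.99, limma adjusted p = 2.8e-05), and the log2 fold change of -1.12 became -0.74 without Col-0 A, still past the threshold.

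The channel genes were 3 of the 7 genes that fell in mtsf1, where 9 rose (7 and 14 after scaling to equal totals). With the atp6 copies summed into 1 gene, 6 genes fell and 9 rose. Over all genes the median log2 fold change was 0.03. In ATP synthase 4 of 6 genes fell, with a median of -0.97. The fourth was atp8, with 6228 and 9344 normalized read counts in mtsf1 and 19220 and 15337 in Col-0, a log2 fold change of -1.17 (limma adjusted p = 1.3e-05). atp4 (-0.46, 0.0892) and atp1 (0.03, 0.931) did not pass.

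Totals of the deposited table were lower in mtsf1, at 227755 and 216316, than in mtl1 (259933 and 265020) and Col-0 (290301 and 270243). Scaling to equal totals moved the median over all genes in mtsf1 against Col-0 to 0.36. On that scale atp6-1 had a log2 fold change of -0.65, atp6-2 of -0.63 and atp9 of -0.78 in mtsf1, all past the threshold. Both mutants were compared with the same Col-0 libraries, so their falls are not independent of each other.

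**Figure D2:**
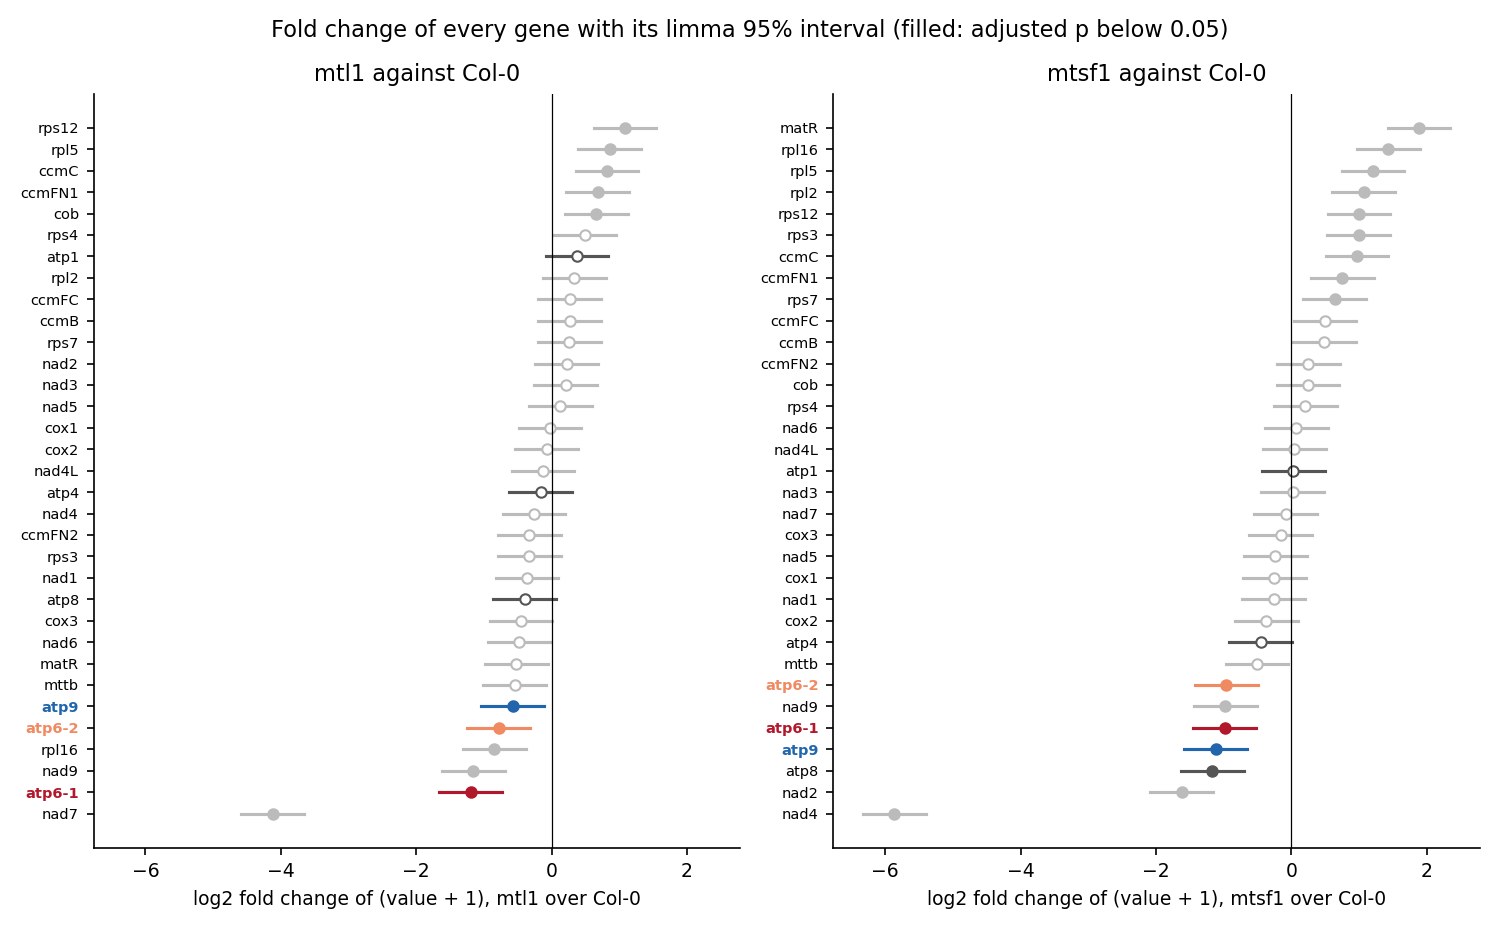
Log2 fold change of (value + 1) for each of the 33 genes, in mtl1 (left) and mtsf1 (right) against Col-0, sorted by size, with the limma 95% interval as a bar. Filled points had an adjusted p below 0.05, the 3 channel genes are coloured and the other ATP synthase genes are dark grey. The channel genes lie among the lowest genes of each mutant, at -1.20, -0.78 and -0.57 in mtl1 and at -0.98, -0.96 and -1.12 in mtsf1 (atp6-1, atp6-2, atp9).

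Counted as 1 gene, the atp6 copies had 5277 and 8957 normalized read counts in mtl1, 8552 and 7221 in mtsf1, and 15799 and 15270 in Col-0. The sum does not depend on how reads were split between the copies, though it would be changed if reads matching both were left out or counted in each. It was 2.26-fold lower in mtl1 (95% interval 1.64 to 3.11, limma adjusted p = 3.2e-05) and 1.98-fold lower in mtsf1 (1.43 to 2.72, limma adjusted p = 0.00016). In a fit with each gene's own variance, neither sum passed (limma adjusted p = 0.147 in mtl1 and 0.123 in mtsf1), and neither did any of the 3 genes, with adjusted p from 0.0849 to 0.352.

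No channel gene passed the test between the mutants, in a comparison where limma called 24.2% of genes. mtl1 against mtsf1 had a log2 fold change of -0.21 for atp6-1 (95% interval -0.67 to 0.25, limma adjusted p = 0.507) and of 0.18 for atp6-2 (-0.28 to 0.64, 0.538). atp9 was 0.55 higher in mtl1 on the log2 scale (0.08 to 1.01), and did not pass (limma adjusted p = 0.0639), though the libraries did not overlap, as in 66.7% of genes. The sign of atp6-1 turned to 0.19 without mtl1 A, and that of atp6-2 to -0.060 after scaling to equal totals.

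As a check of the labels, nad7 had 460 and 394 normalized read counts in mtl1 and 8132 and 6785 in Col-0. nad4 had 216 and 207 in mtsf1 and 13818 and 11147 in Col-0. Footprints of the gene that each label names were thus nearly lost in that mutant, and the falls of the channel genes were far smaller. Footprints alone do not tell a loss of translation from a loss of mRNA.

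The 3 genes held 6.34% and 8.36% of all footprints in the table in mtl1, 7.71% and 6.89% in mtsf1, and 13.5% and 10.8% in Col-0. Their part of all ATP synthase footprints was 18.1% and 24.0% in mtl1, 25.7% and 20.2% in mtsf1, and 36.6% and 31.4% in Col-0. The mutant libraries stayed below both Col-0 libraries in each of these shares, which do not depend on library scaling. They do depend on the other genes: atp1 held 19.5% ± 0.980 of all footprints in mtl1, 18.2% ± 2.89 in mtsf1 and 14.1% ± 0.291 in Col-0 (SD, n = 2). The mean shares of atp4 and atp8 were lower in both mutants than in Col-0. ATP synthase as a whole held 34.9% ± 0.103 in mtl1, 32.1% ± 2.92 in mtsf1 and 35.6% ± 1.86 in Col-0 (SD, n = 2).

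Levels of different genes were compared per kilobase of coding length, which for the atp6 copies includes the stretch they share. On that scale atp9 was the highest of the 33 genes in all 3 genotypes, with 54202 ± 6289 normalized read counts per kilobase in mtl1, 37091 ± 4139 in mtsf1 and 83098 ± 30289 in Col-0 (SD, n = 2). Its libraries did not overlap with those of the next gene, which was atp1 in mtl1 (33590 ± 1227), cox3, for a subunit of cytochrome c oxidase, in mtsf1 (27546 ± 1379), and atp8 in Col-0 (36223 ± 5756). atp6-1 stood near the middle in the mutants, at rank 17 in mtl1 (5861 ± 2250 per kilobase) and rank 14 in mtsf1 (6557 ± 856). In Col-0 it stood higher, at rank 10 (12919 ± 221). In mtl1 its neighbours nad9 and rps12 overlapped with it, and in mtsf1 nad1, just above, did not while nad5, just below, did. In Col-0 it lay apart from cob above and overlapped with nad3 below.

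atp6-2 was near the bottom, at rank 32 in mtl1 (315 ± 3.37 per kilobase), rank 32 in mtsf1 (279.5 ± 47.8) and rank 30 in Col-0 (547 ± 112). It overlapped with rpl16 above it in mtl1 and lay apart from matR below. In mtsf1 it lay apart from both neighbours, mttb above and nad4 below, and in Col-0 it overlapped with both, rps3 and rpl2.

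The places of the atp6 copies depend on how reads from the shared stretch were counted, but that of atp9 does not. If no such read had been counted, only the words of 30 bases that the other copy lacks would have given footprints. Per 1000 of those words, atp6-2 had 1144 ± 12.2 normalized read counts in mtl1, 1016 ± 174 in mtsf1 and 1988 ± 409 in Col-0 (SD, n = 2). With the other genes divided by all their words, these levels gave atp6-2 ranks 23, 28 and 20 of 33. It thus stood higher than per kilobase in every genotype, but stayed near the bottom in mtsf1. atp6-1 had 17094 ± 6563 in mtl1, 19126 ± 2497 in mtsf1 and 37683 ± 645 in Col-0, at ranks 7, 5 and 3. Summed and divided by the 1447 bases of distinct sequence, atp6 had 4918 ± 1798 per kilobase in mtl1, 5450 ± 650 in mtsf1 and 10736 ± 259 in Col-0, at ranks 17, 16 and 11 of 32. atp9 was first in each of these orders.

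**Figure D3:**
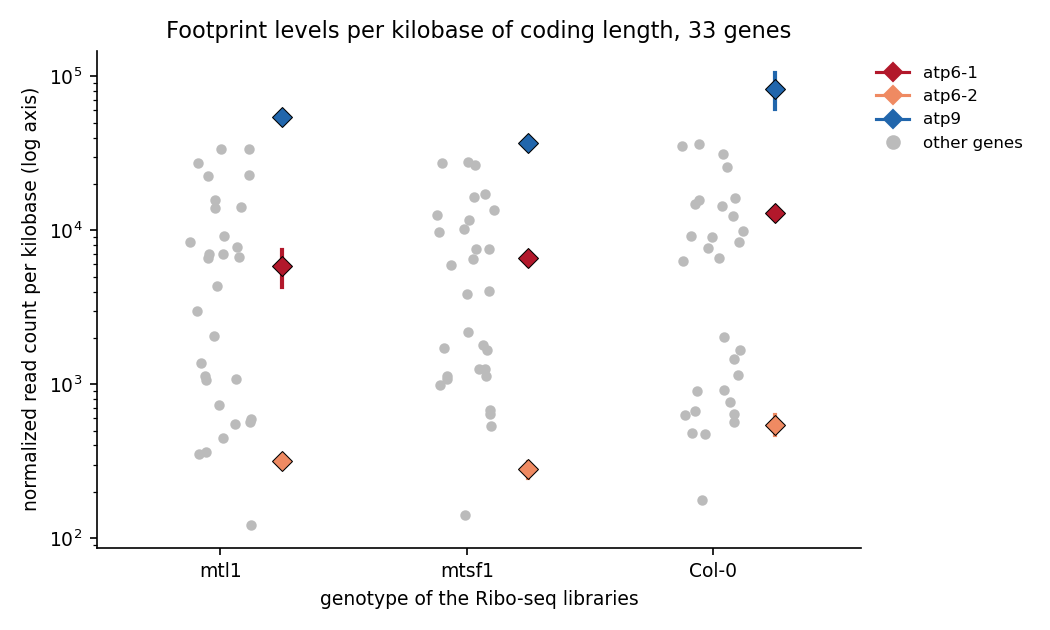
Mean normalized read count per kilobase of coding length (log axis) for the 33 genes in mtl1, mtsf1 and Col-0. Diamonds are the 3 channel genes with a bar from library A to library B, and grey points are the other genes, spread sideways at random. On this scale, which counts the shared stretch in both atp6 copies, atp9 is at the top and atp6-2 near the bottom of every genotype. atp6-1 lies between them, at rank 17 in mtl1, 14 in mtsf1 and 10 in Col-0.

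Nearly all deposited atp6 footprints were assigned to copy 1, by a rule for shared reads that is not stated. atp6-1 exceeded atp6-2 14.8-fold and 26.3-fold in mtl1, 32.1-fold and 20.9-fold in mtsf1, and 23.0-fold and 30.1-fold in Col-0. atp6-2 accounted for 6.31% and 3.66% of atp6 footprints in mtl1, 3.02% and 4.56% in mtsf1, and 4.16% and 3.22% in Col-0. All genotypes overlapped. The difference in the mean log2 ratio was -0.41 in mtl1 and -0.020 in mtsf1 against Col-0 (exact two-sided permutation p = 0.667 and 1, where 2 libraries against 2 cannot give less than 0.333). The value in mtl1 rested on mtl1 A, without which it was -0.00053. Divided by the words of 30 bases that only 1 copy has (397 in atp6-1 and 289 in atp6-2), the ratio was between 10.8 and 23.4 over the 6 libraries. That division rescales every ratio by the same factor and applies only if no shared read was counted. It is no test of how footprints divide between the copies.

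Footprints of both atp6 copies together were set against atp9 within each library, a ratio that does not depend on scaling between libraries. There were 0.471 and 0.679 atp6 footprints per atp9 footprint in mtl1, 0.950 and 0.939 in mtsf1, and 0.672 and 1.10 in Col-0. mtl1 lay lowest but its higher library passed the lower Col-0 library, and mtsf1 lay within the Col-0 range. The mean log2 ratio differed from Col-0 by -0.60 in mtl1 and 0.14 in mtsf1 (exact two-sided permutation p = 0.667 and 1). In mtl1 the difference ran from -0.96 without Col-0 A to -0.25 without Col-0 B, and in mtsf1 it turned to -0.22 without Col-0 A. Per kilobase of all coding bases, atp9 exceeded atp6-1 by 11.7-fold and 7.87-fold in mtl1, 5.59-fold and 5.74-fold in mtsf1, and 7.99-fold and 4.83-fold in Col-0.

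**Figure D4:**
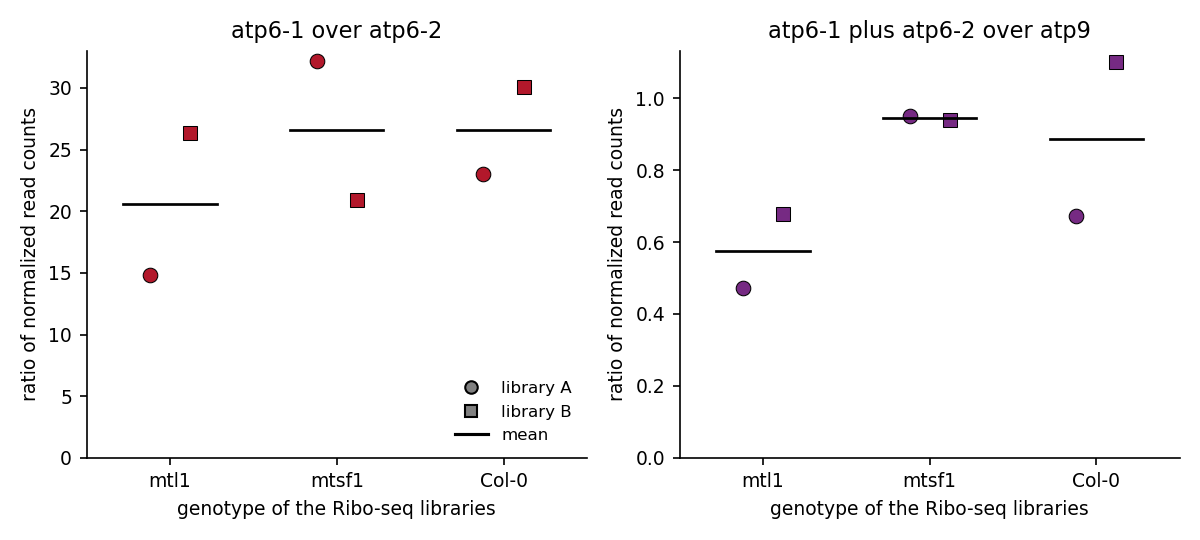
Ratios of normalized read counts within each Ribo-seq library of mtl1, mtsf1 and Col-0: atp6-1 over atp6-2 (left) and both atp6 copies over atp9 (right). Circles are library A, squares library B, bars the mean, and both axes start at 0. The genotypes overlap in the left plot, and in the right plot mtl1 (0.471 and 0.679) is lowest but reaches into the Col-0 range (0.672 and 1.10).

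Much of the uncertainty of atp9 lay in the wild type. The log2 difference between Col-0 A and Col-0 B was 0.76 for atp9, the largest of the 33 genes, against a median size of 0.31. For atp6-2 it was 0.42, the sixth largest, and for atp6-1 it was 0.03. In mtl1 atp6-1 was the uneven member, with -0.80 between A and B, and atp9 (-0.24) and atp6-2 (0.02) were closer. In mtsf1 no channel gene was among the 9 most uneven genes.

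Profiles over the 6 libraries were compared by the root mean square difference of log2 values after centring each gene on its mean. This describes 6 libraries of 3 genotypes that all genes share. Nearest to atp6-1 were nad9 (0.279), for a complex I subunit, mttb (0.312), for a membrane transport protein, and atp6-2 (0.370), against a median of 0.720 over genes. Nearest to atp6-2 were atp9 (0.256), atp8 (0.262) and nad1 (0.316), with a median of 0.579. Nearest to atp9 were atp6-2 (0.256), atp8 (0.312) and cox2 (0.377), with a median of 0.618, while atp6-1 was eighth (0.424).

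Editing of atp9 was complete or nearly so in Col-0 flowers, the only genotype with RNA-seq here. At base 20, 1037 of 1039 reads with T or C were edited in library A and 2259 of 2259 in B. At base 50 all 319 and all 201 reads were edited. At base 134 the edited reads were 789 of 789 in A and 978 of 979 in B, and at base 191 all 142 and all 228 reads. The Wilson 95% interval at base 20 was 99.3% to 99.9% in A and 99.8% to 100% in B. At base 191 the interval began at 97.4% in A and 98.3% in B, and at base 50 at 98.8% and 98.1%. By the simpler limit of 3 counts over the reads, a count of 0 unedited reads allows up to 2.11% unedited transcripts at base 191 in A and 1.32% in B, and up to 0.940% and 1.49% at base 50. These intervals and limits cover counting error only.

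In all, 2 of 2289 reads in A and 1 of 3667 in B were unedited over the 4 sites. The mean level over the sites was 99.96% ± 0.0160 (SD of library means, n = 2), against a mean of 89.0% over the 226 sites that had 20 or more reads in each library. Of those sites, 161 lay above 99%, so a level this high was common. Fisher's exact test gave no difference between the libraries at any of the 4 sites (adjusted p = 1 at each, with the smallest unadjusted p of 0.0992 at base 20), and 0.442% of the 226 sites were called. The reference levels in the deposited table, of unstated origin, were 99% at bases 20, 50 and 191 and 98% at base 134.

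The reads behind these levels were uneven along the short gene. Library A had 1041, 319, 790 and 142 reads at bases 20, 50, 134 and 191, and library B had 2261, 201, 980 and 228. The highest and lowest site differed 7.33-fold in A and 11.2-fold in B, in the same order of bases 20 and 134 above bases 50 and 191. The median over the 4 sites was 554.5 reads in A and 604 in B, which gave ranks 2 and 3 among 29 genes with listed sites. The annotation marks 5 editing sites in atp9, the listed 4 among them, and 1 in each atp6 copy, inside the shared stretch. Sites outside the listed ones were not analysed here.

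**Figure D5:**
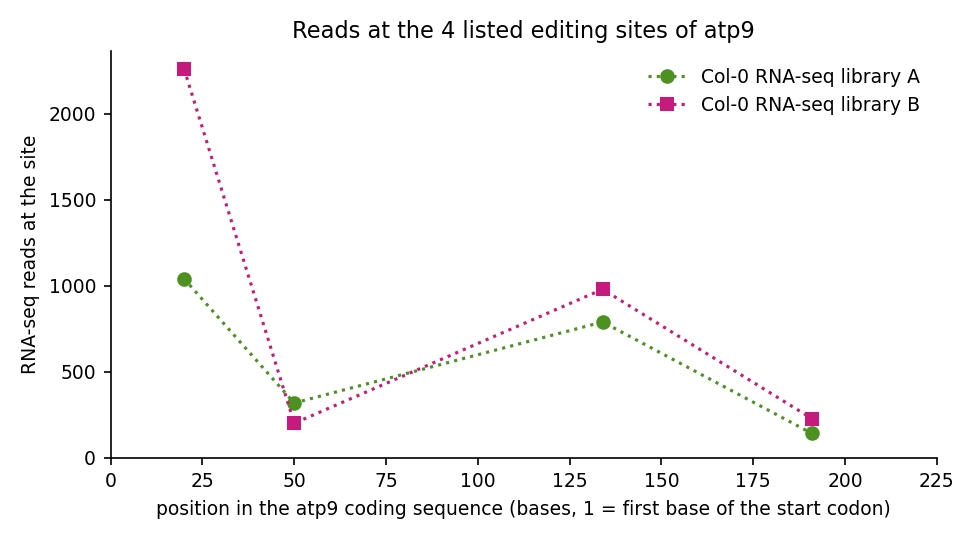
RNA-seq reads at the 4 listed editing sites of atp9 in the Col-0 libraries A (circles) and B (squares), against position in the coding sequence of 225 bases. Dotted lines only join the points of a library. Both libraries have most reads at base 20 (1041 and 2261) and few at bases 50 and 191.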

How the data were processed

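The authors deposited 1 normalized score for each gene and Ribo-seq library: a read count, scaled in a way not stated in the sources used here and rounded. No depth can be had from it. The submitters' processing notes name FastQC, cutadapt 1.9.1, Bowtie 1.1.2 and, for Ribo-seq alone, featureCounts 1.5.0-p2. Build, annotation and strand handling were not stated. The deposited editing tables hold, per the file headers, a read count for each base, the coverage and an editing fraction at 434 sites, with 46892 reads in A (median 24 per site) and 100704 in B (43).

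Footprints were tested as log2(value + 1) by limma 3.58.1 (R 4.3.3) in 1 model of all 6 libraries, with Benjamini-Hochberg adjustment over the 33 genes, each above 0 in 2 or more libraries. Fold changes are on that scale. The variance prior was infinite, which put 99 degrees of freedom behind each test. Coding lengths came from TAIR10.1, which may differ from the authors' build. Editing levels are T over T plus C reads, at sites with 20 or more such reads in each library. Fisher's exact test was adjusted over 226 sites. Both tests were tested on simulated data. In the simulated footprints every gene had the same spread, as the limma fit assumes, so they could not show that assumption failing. Ratios were compared by exact permutation over libraries.

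None of 10 plastid or nuclear genes looked for was in the table. The genes named are the channel genes, the other ATP synthase genes, nad7 and nad4, the 3 nearest profiles and the neighbours in level. The genes, lists and tests were chosen with earlier results of these data known. Same-lettered libraries did not deviate together over genes (r = 0.066, 0.0039 and -0.14 between genotypes), so letters were not taken as pairs. Other tools were Python 3.11.15 with scipy 1.17.1, statsmodels 0.14.6, pandas 2.3.3 and numpy 2.4.6.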

Additional observations from a re-analysis of the deposited data

How the results depend on the processing

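The falls of atp6-1 and of the atp6 sum in both mutants, and of atp6-2 and atp9 in mtsf1, kept their direction and their side of the threshold in every alternative but the fit with each gene's own variance. That fit, an ordinary t-test with far fewer degrees of freedom, gave the same log2 fold changes: -1.20 (atp6-1), -0.78 (atp6-2), -0.57 (atp9) and -1.18 (sum) in mtl1, and -0.98, -0.96, -1.12 and -0.98 in mtsf1, none of them past the threshold. Its standard errors were larger for atp6-1, atp9 and the sum, but not for atp6-2 (0.22 against 0.23). The same fit called 1 gene in mtl1 (of 11), and 4 in mtsf1 (of 16). atp6-2 in mtl1 was also lost when the variance followed the level (-0.78), where 3 genes fell and 6 rose. atp9 in mtl1 was lost there, with the compared genotypes alone, with the copies summed and with the replicate block (-0.57 in each), and after scaling to equal totals (-0.48), without nad4 and nad7 in the total (-0.52). The replicate block changed no other call. In mtl1 against mtsf1, scaling to equal totals raised the genes called from 8 (3 higher, 5 lower) to 13 (3 and 10) and turned atp6-2 to -0.060 (-0.047 without nad4 and nad7 in the total). The causes were not tested.

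With 1 library left out, the log2 fold change in mtl1 ran from -1.60 to -0.79 (atp6-1), -0.99 to -0.57 (atp6-2), -0.95 to -0.19 (atp9) and -1.56 to -0.79 (sum). In mtsf1 it ran from -1.12 to -0.85, -1.17 to -0.75, -1.50 to -0.74 and -1.10 to -0.86. In mtl1 against mtsf1, atp6-1 ran from -0.61 to 0.19. A lone library was assumed to vary like the others. The log2 ratio of atp6-1 to atp6-2 ran from -0.83 to -0.00053 in mtl1 and from -0.33 to 0.29 in mtsf1, and that of the atp6 sum to atp9 from -0.96 to -0.25 in mtl1 and from -0.22 to 0.49 in mtsf1. Genes called ran from 8 to 10 in mtl1, 15 to 17 in mtsf1 and 6 to 10 between mutants, with 3 to 7 lower and 1 to 6 higher in mtl1.

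The filter at a mean of 500 removed atp6-2, so it has no value there. Dividing the atp6 copies by their unshared words alone, chosen after seeing the data, moved both up the order of levels in every genotype. Coverage minimums of 1, 50 and 100 reads left the atp9 editing levels as they were, and the difference between RNA-seq libraries has no value with 1 left out. The number of libraries limits the footprint results, and the depth behind them is unknown.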
